A study of Mus musculus with 4 samples.

Results

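The genes described here are 10 genes of the Piwi pathway and the germline: Tdrd12, Tdrd1, Tdrd5, Tdrd7, Tdrd9, Piwil2, Mael, Ddx4, Dazl and Asz1. They were chosen by name, starting from Tdrd12, whose low signal in Tip110-/- outgrowths was already known from these arrays. Each had exactly 1 row of the array table with its symbol as the only one, so that all 10 were found among 30142 genes. The arrays measured total RNA of mouse blastocyst outgrowths, the sheets of trophoblast with inner cell mass descendants that form when a blastocyst attaches in culture. The 2 Tip110-/- arrays held a pool of 3 outgrowths (replicate 1) and a single outgrowth (replicate 2), and the 2 wild-type arrays were built the same way. All embryos came from intercrosses of Tip110+/- mice, by natural mating or superovulation, were flushed at 3.5 days post coitum and grown one by one in stem cell medium containing knockout serum replacement, for 4 to 6 days. The sources used here do not say what the mutant allele lacks, nor which mating gave which embryo. Tip110 is the protein of the gene Sart3, which helps the U4 and U6 small nuclear RNAs to pair again between rounds of splicing.

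Piwi proteins are Argonaute relatives that carry small guide RNAs, the piRNAs, to transposon transcripts and cut or silence them. In mouse germ cells this takes place largely in nuage, perinuclear granules close to mitochondria, which Tudor domain (Tdrd) proteins hold together by binding methylated arginines on Piwi proteins. Most genes of this pathway are kept silent in other tissues by promoter DNA methylation and by a variant Polycomb complex, PRC1.6, and several are transcribed at a low level in embryonic stem cells.

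Of the 10 genes, Tdrd12 alone had both Tip110-/- arrays far below both wild-type arrays. Its signal lay in the range of the array background in the Tip110-/- outgrowths and was at least 50.6-fold lower than the mean of the 2 wild-type arrays. Dazl and Mael spanned a wide range within each genotype, with their high and low values crossing between genotypes. Asz1 did the same in the opposite sense. Tdrd7 had nearly 1 level on all 4 arrays, and Piwil2, Tdrd1, Tdrd5, Tdrd9 and Ddx4 had low signal in both genotypes.

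The promoters of 4 of these genes are shown as examples of patterns on the arrays. Tdrd12 had the large difference, Mael and Dazl the wide spread, and Ddx4 a level just above background on all 4 arrays. Each line gives the 250 bases before a RefSeq transcription start, 5′ to 3′ in the sense of the gene, in assembly GRCm38.p6. Capitals mark the E-box CACGTG, which MAX-containing dimers such as that of PRC1.6 bind, and the E2F6 element TCCCGC, searched on both strands, so that GCGGGA is its other strand.
Tdrd12, chr7:35537716-35537965, minus strand: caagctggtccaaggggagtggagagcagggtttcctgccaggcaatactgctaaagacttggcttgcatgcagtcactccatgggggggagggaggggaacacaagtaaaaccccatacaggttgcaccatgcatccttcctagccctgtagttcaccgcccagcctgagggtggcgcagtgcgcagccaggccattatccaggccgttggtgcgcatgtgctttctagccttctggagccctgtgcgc
Mael, chr1:166238745-166238994, minus strand: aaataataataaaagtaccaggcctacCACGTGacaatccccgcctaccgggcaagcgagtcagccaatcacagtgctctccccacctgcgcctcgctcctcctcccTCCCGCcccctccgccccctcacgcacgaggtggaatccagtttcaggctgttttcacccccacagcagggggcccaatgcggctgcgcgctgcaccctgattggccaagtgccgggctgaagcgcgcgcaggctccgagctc
Ddx4, chr13:112652311-112652560, minus strand: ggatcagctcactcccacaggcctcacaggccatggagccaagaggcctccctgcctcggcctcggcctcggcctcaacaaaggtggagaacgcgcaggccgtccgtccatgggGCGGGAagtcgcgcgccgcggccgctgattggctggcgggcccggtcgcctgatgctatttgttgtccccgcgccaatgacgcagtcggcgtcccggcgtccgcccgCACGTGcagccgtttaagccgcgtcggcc
Dazl, chr17:50293621-50293870, minus strand: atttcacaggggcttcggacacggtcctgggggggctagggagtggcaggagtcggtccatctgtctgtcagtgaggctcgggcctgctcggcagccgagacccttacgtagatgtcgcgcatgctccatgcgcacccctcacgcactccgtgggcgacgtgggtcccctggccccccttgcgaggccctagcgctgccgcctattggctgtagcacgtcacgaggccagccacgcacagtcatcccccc

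RefSeq promoters were held for 9 of the 10 genes, with 14 starts in all; Piwil2 had none in the table. CACGTG stood in the windows of 4 genes, Tdrd1, Tdrd9, Mael and Ddx4, and in 5 of the 14 windows (35.7%), where 6.02% of 32851 mouse promoter windows of the same length held it. The windows are not all separate. The Tdrd1 windows with the motif overlap and share 1 site, 11 and 77 bases before their starts, so this site is counted more than once. Those of Tdrd12 also overlap. TCCCGC stood in the windows of 3 genes, Tdrd5, Mael and Ddx4, in 3 of 14 windows (21.4%) against 16.9% of all. The E-box lay 223 bases before the start in Mael and 29 bases before it in Ddx4. In Tdrd9, whose window is not printed, 2 copies lay 165 and 95 bases before the start. Neither motif stood in the windows of Tdrd12, Tdrd7, Dazl or Asz1. The printed Tdrd12 window had 6 CpG sites, those of Mael 18, Ddx4 31 and Dazl 20, against a median of 6 over all promoter windows. The 14 windows had medians of 16.5 CpG sites and 60.6% G and C, the latter against 52.4% over all windows. Both motifs contain a CpG, and their shares were not compared at equal base composition. These are counts of letters and carry no test.

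The values are log2 signals as deposited. The antigenomic rows, 23 probe groups that match no mouse sequence, set the background: their 95th percentile was 4.69 and 4.71 on the Tip110-/- arrays and 4.24 and 4.63 on the wild-type arrays. The table has no detection calls, and probes of different genes bind with different strength, so this level is a rough guide and levels are not ranked between genes. Over all genes the median difference, Tip110-/- minus wild-type, was 0.15. Sart3 had 4.28 and 4.54 in the Tip110-/- outgrowths and 4.94 and 5.98 in wild-type, lower in both mutant arrays; whether its probes lie in the mutated part of the gene is not given in the labels, so this is a limited check. The Sart3 difference was -1.05 ± 0.39 (SE), ranging to -0.53 without wild-type replicate 2 and -1.57 without wild-type replicate 1. Both Tip110-/- values were below the background percentile of their arrays, so this difference can understate the change. Trophoblast markers were above background on all 4 arrays for 7 of 7 genes measured, epiblast markers for 7 of 10 and primitive endoderm markers for 1 of 6, while 6 of 6 fibroblast markers stayed below it on every array. RNA collected per outgrowth was 55.0 and 144 pg for Tip110-/- and 249 and 178 pg for wild-type, so that RNA yield and genotype cannot be told apart. The rows named as positive controls had medians of 8.69 and 9.51 on the Tip110-/- arrays and 9.80 and 9.66 on the wild-type arrays. The negative control rows ran the other way, at 4.28 and 4.18 on the Tip110-/- arrays and 3.98 and 4.03 on the wild-type arrays, and so did 8 spiked hybridization and labelling control rows, at 10.68 and 10.22 against 9.04 and 9.03. A technical difference between arrays and genotype cannot be told apart.

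With 2 arrays a genotype, which the labels call biological replicates, an exact two-sided permutation test cannot go below p = 0.333. Genes were therefore fitted together with limma, and 0 of 30142 (0%) passed an adjusted p of 0.05. At an unadjusted p under 0.05, 3.67% of genes (1106) were lower and 8.99% (2711) higher in Tip110-/-, a split that became 1825 lower and 911 higher when each array was centred on its median and 1459 lower and 1262 higher after quantile normalization. Because the 10 genes were chosen with this contrast in view, their differences are given as descriptions, with standard errors and without p-values.

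**Figure D1:**
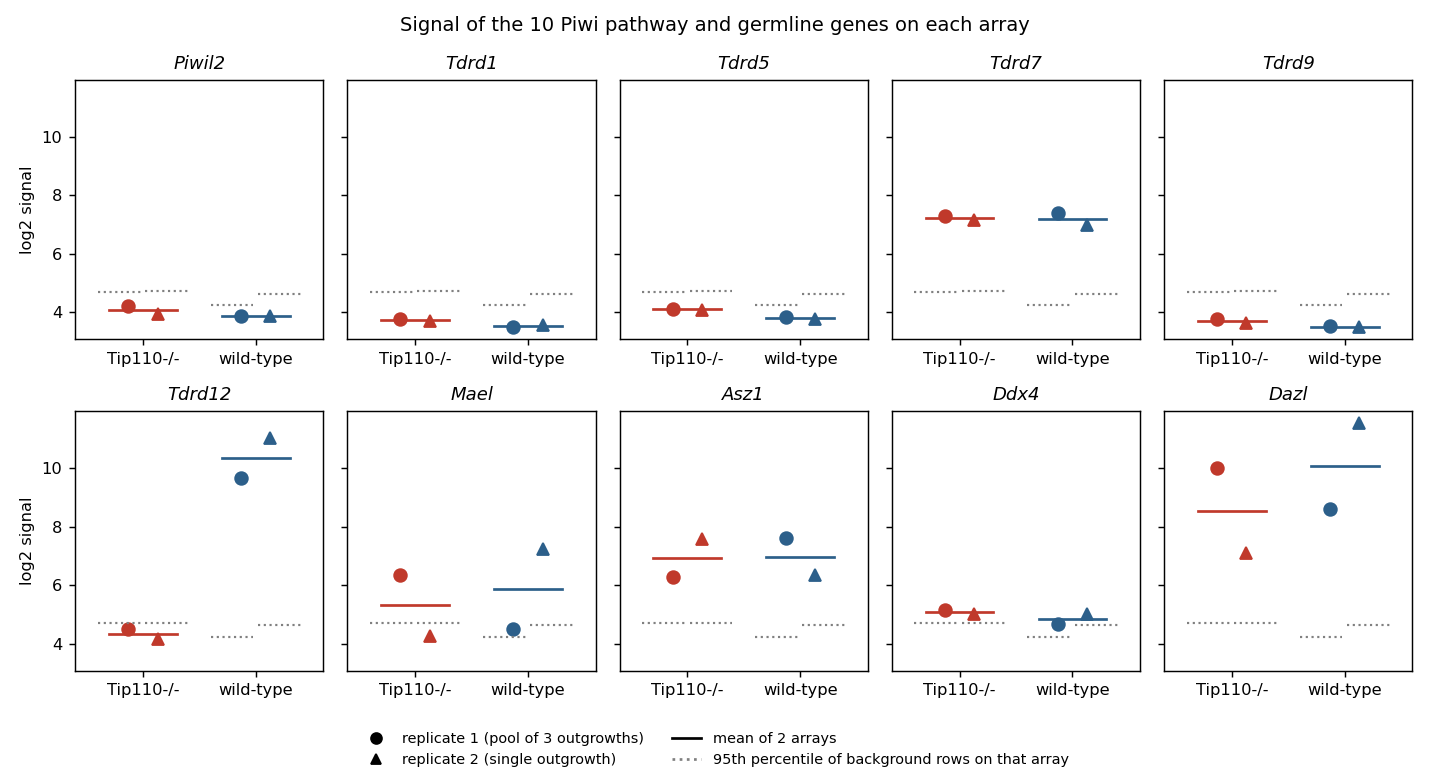
Log2 signal (y axis) of the 10 genes in the Tip110-/- and wild-type arrays (x axis). Circles are pools of 3 outgrowths, triangles single outgrowths, bars the means of 2 arrays and dotted lines the 95th percentile of the background rows on each array; Tdrd12 sits at 4.51 and 4.15 in Tip110-/- and at 9.67 and 11.05 in wild-type, while Dazl and Mael are high in Tip110-/- replicate 1 and wild-type replicate 2.

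Piwil2, the Piwi protein that makes piRNAs by the ping-pong cycle in the fetal and adult mouse testis, had 4.19 and 3.93 in the Tip110-/- outgrowths and 3.87 and 3.85 in wild-type. All 4 values were below the background percentile of their arrays. Its difference, 0.20 ± 0.15 (SE), was close to the 0.15 of the median gene.

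Tdrd12, a Tudor domain protein with a helicase region that secondary piRNA production needs in mouse, had 4.51 in the pool and 4.15 in the single Tip110-/- outgrowth. The wild-type pool had 9.67 and the wild-type single outgrowth 11.05. Both Tip110-/- values were below the background percentile of their arrays and both wild-type values far above it, with a gap of 5.16 between the groups. The means were 4.33 ± 0.26 in Tip110-/- and 10.36 ± 0.98 in wild-type (SD, n = 2 each), a difference of -6.03 ± 0.60 (SE). Because the Tip110-/- values were at background, the fold is a bound. Against the background percentile of those arrays, the level was at least 50.6-fold lower in Tip110-/- than the wild-type mean. That bound rests on the mean of wild-type arrays 1.38 apart, and is smaller against the wild-type pool alone. Of all 30142 genes, 11 had a difference at least as low, Tdrd12 included; this rank is what brought Tdrd12 to notice and supports nothing further.

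The other Tudor genes did not share this pattern. Tdrd1, a scaffold of nuage that binds Piwi proteins, had 3.77 and 3.68 in Tip110-/- and 3.49 and 3.57 in wild-type. Tdrd5, which nuage assembly and transposon silencing need in the mouse testis, had 4.12 and 4.08 in Tip110-/- and 3.84 and 3.76 in wild-type. Tdrd9, a helicase with a Tudor domain that works with the nuclear Piwi protein in mouse, had 3.77 and 3.62 in Tip110-/- and 3.51 and 3.48 in wild-type. For each of these the Tip110-/- arrays lay slightly above the wild-type arrays, and all values were below the background percentile. Their differences were 0.20 ± 0.11, 0.30 ± 0.13 and 0.20 ± 0.11 (SE), which left 0.05, 0.15 and 0.05 after the median of all genes was taken away. Tdrd7, a component of nuage and of lens RNA granules, had 7.28 and 7.16 in Tip110-/- and 7.38 and 6.97 in wild-type. Both Tip110-/- values lay between the wild-type values, all above background, and the difference was 0.04 ± 0.41 (SE). Tdrd7 thus had signal on every array and a genotype difference smaller than its spread, whose sign changed to -0.12 with centred arrays.

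Dazl, an RNA-binding protein that controls translation in germ cells, had 10.001 in the pooled and 7.10 in the single Tip110-/- outgrowth. In wild-type the order of replicates was the opposite, with 8.61 in the pool and 11.56 in the single outgrowth. All 4 values were above background, and the groups overlapped. The difference of -1.53 ± 1.40 (SE) was smaller than the 2.90 between the Tip110-/- arrays and the 2.95 between the wild-type arrays. Leaving out Tip110-/- replicate 2 gave -0.08 and leaving out wild-type replicate 2 gave -0.06, against -2.99 without Tip110-/- replicate 1 and -3.01 without wild-type replicate 1.

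Mael, a nuage protein that mouse spermatocytes need to silence transposons, followed the same order of arrays. It had 6.35 in the pooled and 4.27 in the single Tip110-/- outgrowth, and 4.49 in the pooled and 7.23 in the single wild-type outgrowth. The Tip110-/- single outgrowth was below background and the groups overlapped. The difference of -0.55 ± 1.11 (SE) changed sign with the arrays used, to 0.49 without Tip110-/- replicate 2 and 0.82 without wild-type replicate 2, against -1.59 without Tip110-/- replicate 1 and -1.92 without wild-type replicate 1.

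Asz1, an ankyrin repeat protein that anchors nuage to mitochondria, had the reverse order, with 6.28 in the pooled and 7.58 in the single Tip110-/- outgrowth. Wild-type had 7.61 in the pool and 6.34 in the single outgrowth. Each genotype thus held 1 array near 6.3 and 1 near 7.6, and the genotype difference was -0.04 ± 0.68 (SE); it was 0.60 without Tip110-/- replicate 1, 0.59 without wild-type replicate 1, -0.69 without Tip110-/- replicate 2 and -0.68 without wild-type replicate 2, and 0.06 and 0.01 after quantile normalization and cyclic loess. Ddx4, the mouse form of the DEAD-box helicase Vasa, had 5.15 and 5.02 in Tip110-/- and 4.66 and 5.01 in wild-type. These values were just above background on each array, and the gap between the groups was 0.02. Its difference was 0.25 ± 0.23 (SE).

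**Figure D2:**
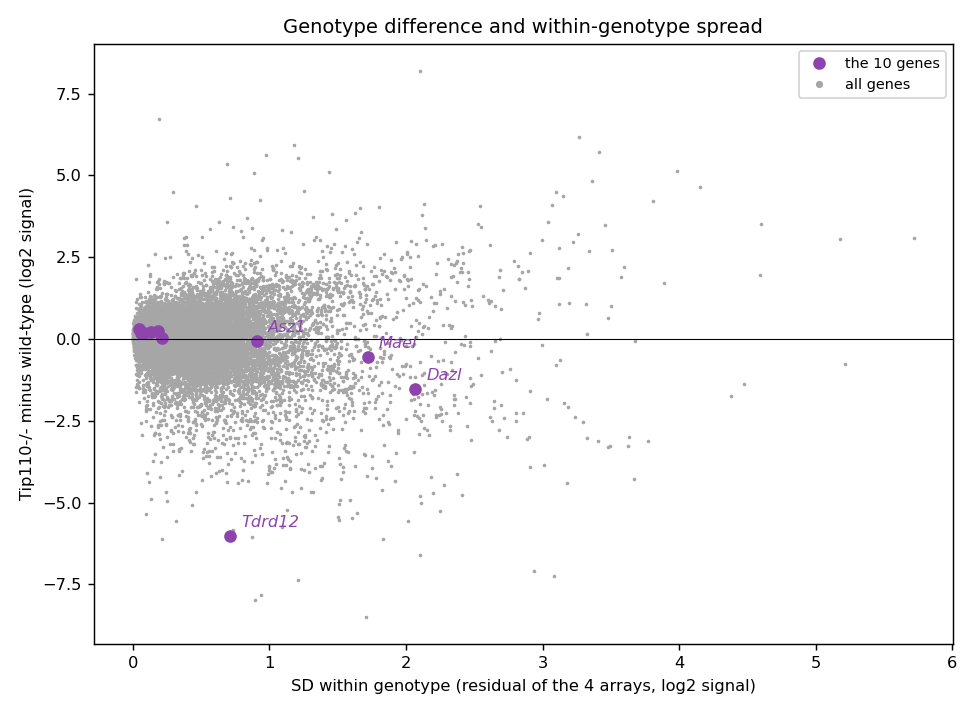
Difference of means (y axis, Tip110-/- minus wild-type, log2 signal) against the SD within genotype (x axis, log2 signal, residual of the fit over 4 arrays) for all 30142 genes in grey and the 10 genes in purple. Tdrd12 combines a difference of -6.03 with an SD of 0.71, while Dazl, Mael and Asz1 have SDs of 2.07, 1.72 and 0.91 with differences of -1.53, -0.55 and -0.04; the 6 other genes cluster near 0 on both axes.

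As a group, 1 of the 10 genes, Tdrd12, was lower with no overlap between genotypes, where 12.9% of all genes were. There were 5 that were higher with no overlap (Piwil2, Tdrd1, Tdrd5, Tdrd9 and Ddx4), where 39.9% of all genes were, and 4 whose groups overlapped, where 47.1% did. The 5 became 2 after quantile normalization and 1 with centred arrays or after cyclic loess, while the count of 1 lower gene stayed 1 under these 3 scalings. With single arrays left out, the lower count was 3 without Tip110-/- replicate 1, wild-type replicate 1 or wild-type replicate 2, and 2 without Tip110-/- replicate 2. With 1 array against 2, no overlap is easier to reach for any gene. The shares of all genes under these scalings and with arrays left out were not computed, so these counts have no comparison. A difference of at least 1 on the log2 scale toward lower signal was seen for Tdrd12 and Dazl, 2 of 10, beside 5.56% of all genes, and no member reached it toward higher signal, beside 4.53%. Since the choice of genes used this contrast, nothing is read from these shares. The median difference was 0.12 over the 10 genes and 0.20 over the 9 without Tdrd12, beside 0.15 over all genes. The spread within genotype was at least as large as that of Dazl in 0.783% of all genes, as that of Mael in 1.28%, of Asz1 in 6.71% and of Tdrd12 in 11.1%. It was at least as large as that of Tdrd5 in 94.2%. On every array the median over all genes was itself below the background percentile, at 4.45 and 4.32 in Tip110-/- and 4.21 and 4.22 in wild-type. Among the 10 genes, 4 (Tdrd7, Ddx4, Dazl and Asz1) were above background on all 4 arrays, 2 (Tdrd12 and Mael) on some and 4 on none. The name Piwi pathway thus describes the list: its Piwi protein gene, Piwil2, was among the 4 below background on every array.

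The remainder of the piRNA pathway was read from a list of 24 further genes, of which 21 had a row. At an unadjusted p under 0.05 in limma, 2 of 21 were lower, 0 higher and 19 did not pass, beside 3.67% and 8.99% of all genes, and 0 passed after adjustment over all genes (smallest limma adjusted p = 0.334). Pld6, the mitochondrial nuclease that cuts piRNA precursors, had 4.72 and 4.61 in Tip110-/- and 5.59 and 5.64 in wild-type, a difference of -0.95 ± 0.22 (SE), and was below background in the single Tip110-/- outgrowth alone. Gpat2, a mitochondrial acyltransferase relative that primary piRNA production needs in mouse germline stem cells, had 4.47 and 4.31 in Tip110-/- and 5.79 and 5.12 in wild-type, a difference of -1.07 ± 0.29 (SE) that can understate the change, since both Tip110-/- values were below background. These 2 genes made up the lower count, and the groups did not overlap in either. Both act at the mitochondrial surface, as Asz1 does. The Asz1 difference, -0.04 ± 0.68 (SE), ran from -0.69 to 0.60 with 1 array left out. It is too imprecise to be set against those of Pld6 and Gpat2. Morc1, needed to silence transposons in male mouse germ cells, had 4.90 and 4.71 in Tip110-/- and 5.20 and 5.63 in wild-type and did not pass. Tdrd6, a Tudor protein of the chromatoid body of spermatids, had 3.29 and 3.14 in Tip110-/- and 3.00 and 3.04 in wild-type, all below background. No overlap was found for 7 of the 21 toward lower signal and for 4 toward higher signal, beside 12.9% and 39.9% of all genes, and the median difference was -0.29, beside 0.15 over all genes. Counted in either direction, the 2 became 4 with centred arrays and after cyclic loess. Over all 30142 genes, 1825 were lower and 911 higher with centred arrays, and 1540 lower and 1173 higher after cyclic loess.

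Tex19.1, Tex19.2, Tdrd3 and Tex15, also in this list, had the order of arrays seen for Dazl and Mael. Like Stk31 below, they were picked after their values were seen. Tex19.1, a germline gene also active in embryonic stem cells and placenta, had 7.99 in the pooled and 4.43 in the single Tip110-/- outgrowth, and 7.51 in the pooled and 8.74 in the single wild-type outgrowth. Its relative Tex19.2 had 6.55 in the pooled and 5.00 in the single Tip110-/- outgrowth, and 5.54 in the pooled and 7.69 in the single wild-type outgrowth. Tdrd3, a further Tudor gene, had 6.71 in the pooled and 5.93 in the single Tip110-/- outgrowth, and 6.58 and 7.27 in wild-type, all above background. Tex15 had 3.63 and 3.50 in Tip110-/- and 3.55 and 4.49 in wild-type, all below background. In each of these genes, the groups overlapped. Stk31, a Tudor domain kinase relative of germ cells, had another order, with 5.23 and 4.59 in Tip110-/- and 5.36 and 8.21 in wild-type. Its groups did not overlap, and its difference of -1.87 ± 0.96 (SE) rested mostly on the single wild-type outgrowth.

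**Figure D3:**
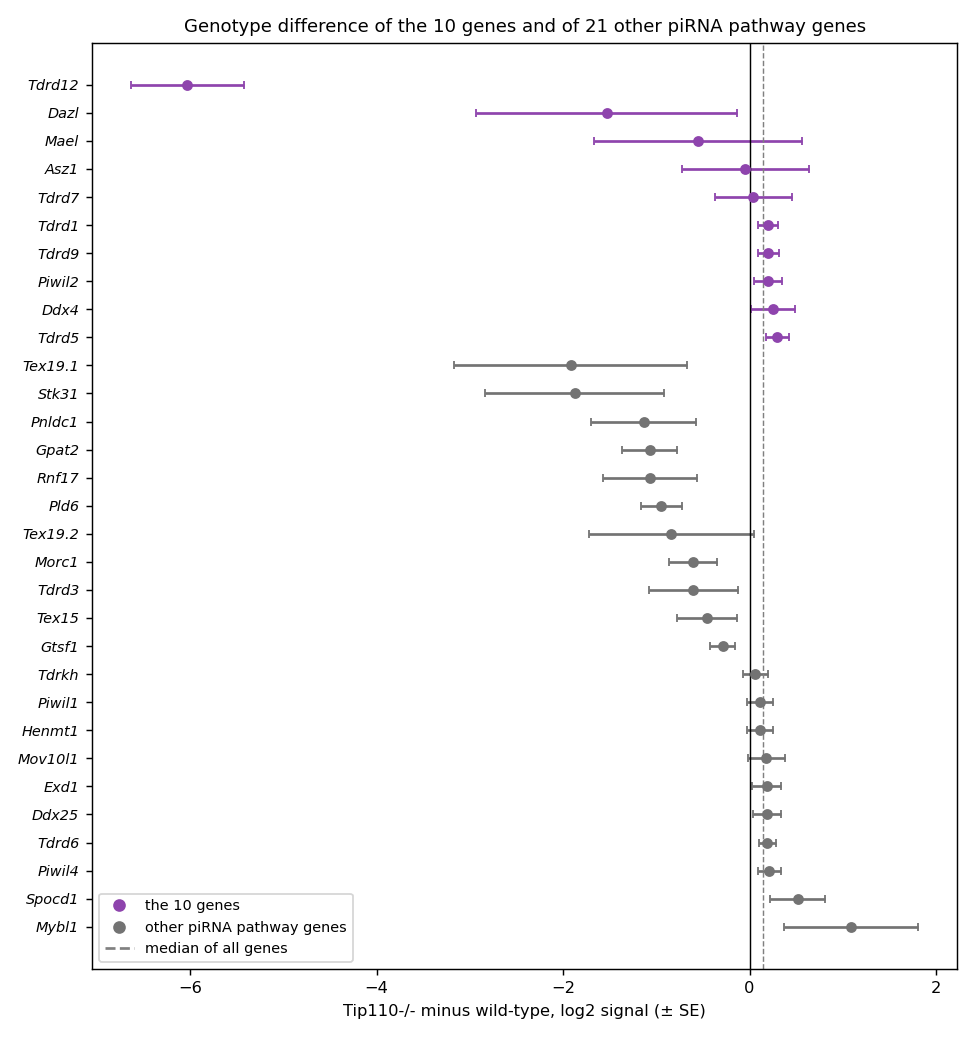
Differences of means (x axis, Tip110-/- minus wild-type, log2 signal, bars ± SE from limma) for the 10 genes in purple and 21 other piRNA pathway genes in grey; the dashed line is the median of all genes, 0.15. Tdrd12 lies apart at -6.03, Dazl, Mael and Asz1 have bars of 1.40, 1.11 and 0.68, and Pld6 and Gpat2 lie at -0.95 and -1.07.

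Meiosis and other germ cell genes were read as a further list. Of 23 such genes, 2 passed an unadjusted p of 0.05 toward lower signal, 0 toward higher and 21 did not pass, beside 3.67% and 8.99% of all genes, with 0 after adjustment (smallest limma adjusted p = 0.322), and the median difference was 0.00, beside 0.15 over all genes. No overlap was found for 4 toward lower and 4 toward higher signal, beside 12.9% and 39.9%. Hormad1, a protein of the meiotic chromosome axis, had 6.995 and 5.35 in Tip110-/- and 9.37 and 10.07 in wild-type, a difference of -3.55 ± 0.72 (SE). Rpl10l, a testis ribosomal protein gene that arose as a retrogene, had 9.59 and 10.03 in Tip110-/- and 12.60 and 11.10 in wild-type, a difference of -2.04 ± 0.70 (SE). Its near-identical parent gene Rpl10 can reach the same probes. Syce2, of the synaptonemal complex, had 8.03 and 7.79 in Tip110-/- and 9.65 and 8.79 in wild-type without passing. Meiob, a meiotic single-strand DNA binding protein, had 3.61 and 3.63 in Tip110-/- and 3.36 and 3.41 in wild-type, all below background.

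Markers of the epiblast, the pluripotent descendants of the inner cell mass, moved with Tdrd12. Of 10 markers, 8 were lower at an unadjusted p under 0.05, beside 3.67% of all genes, 0 were higher, and 0 passed after adjustment in limma. No overlap toward lower signal was found for 9, beside 12.9% of all genes. Their summed log2 signal was 71.8 and 55.6 in Tip110-/- and 95.8 and 101 in wild-type. Pou5f1 had 7.75 and 5.52 in Tip110-/- and 10.04 and 10.06 in wild-type, Sox2 7.88 and 5.68 against 11.29 and 10.93, and Nanog 10.10 and 4.15 against 13.56 and 15.19. Against the background of each array, the markers fell into several patterns. Fgf4, a growth factor of the epiblast, had 4.31 and 3.64 in Tip110-/- and 8.10 and 8.16 in wild-type, and the nuclear receptor Esrrb had 4.15 and 4.26 in Tip110-/- and 5.28 and 5.09 in wild-type. These were below background on both Tip110-/- arrays and above it on both wild-type arrays, as Tdrd12 was. Nanog was below background in the single Tip110-/- outgrowth alone, and the other 7 markers were above it on all 4 arrays. In bulk RNA, fewer epiblast cells and less Tdrd12 RNA per cell cannot be told apart, and the part of epiblast content in the Tdrd12 difference was not tested. Dazl was lowest in the single Tip110-/- and highest in the single wild-type outgrowth, as the sum of the epiblast markers was. Nanog, Tfcp2l1, Tdgf1, Pou5f1 and Fgf4 had the same order within each genotype, the last 2 by little in wild-type. The other markers did not: Sox2 and Klf2 had the reverse order in wild-type, Zfp42 in Tip110-/-, and Esrrb and Klf4 in both. The Tip110-/- pool of Dazl, at 10.001, was above the wild-type pool at 8.61, whereas the marker sum was lower in the Tip110-/- pool. The part of epiblast content in the Dazl values was not tested. Trophoblast markers had summed signals of 84.0 and 87.3 in Tip110-/- and 82.6 and 80.6 in wild-type, with 0 of 7 past an unadjusted p of 0.05 in limma, 0 adjusted.

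Oocyte markers were read because these genes are also active in oocytes. Of 7, 4 were below background on every array, and the sums were 28.5 and 28.4 in Tip110-/- and 30.9 and 28.8 in wild-type. Zp3, a zona pellucida protein, had 3.92 and 4.09 in Tip110-/- and 8.05 and 5.98 in wild-type, the 1 marker lower at an unadjusted p under 0.05, while Gdf9, an oocyte growth factor, had 4.86 and 4.57 in Tip110-/- and 4.09 and 4.20 in wild-type, the 1 marker higher. At that threshold 3.67% of all genes were lower and 8.99% higher. Zp3 and Gdf9 did not pass after adjustment (limma adjusted p = 0.334 and 0.365). The Zp3 values in Tip110-/- were below background, and Gdf9 was above background in the Tip110-/- pool alone. Figla, which controls zona genes in oocytes, and Zp2, Bmp15 and Oosp1 were the 4 below background on all 4 arrays. Nlrp5, a maternal effect gene, was above it on all 4, with 5.39 and 5.89 in Tip110-/- and 5.30 and 5.27 in wild-type. No overlap was found for 5 of the 7 toward higher signal, beside 39.9% of all genes, and for 1 toward lower signal, beside 12.9%.

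The 5 genes with the profile nearest to that of Tdrd12 were found by the distance between their 4 values, each taken relative to the wild-type mean of its gene, among 10588 genes with a mean above the median gene, predicted genes left out. They were Dse, an epimerase of dermatan sulfate synthesis, at a distance of 0.73, the Nodal co-receptor Tdgf1 at 0.82, the glutathione transferase Gsta4 at 1.27, the testis cytochrome c Cyct at 1.31 and the fatty acid desaturase Fads2 at 1.57. Dse had 3.67 and 3.64 in Tip110-/- and 9.56 and 9.97 in wild-type, and Cyct had 3.92 and 3.82 in Tip110-/- and 9.14 and 9.30 in wild-type. Like Tdrd12 these 2 genes were below background in Tip110-/- and far above it in wild-type, while Tdgf1, with 7.57 and 6.13 in Tip110-/- and 12.41 and 13.38 in wild-type, kept signal above it. With 4 arrays in 2 groups, likeness rests mostly on a large difference in the same direction.

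**Figure D4:**
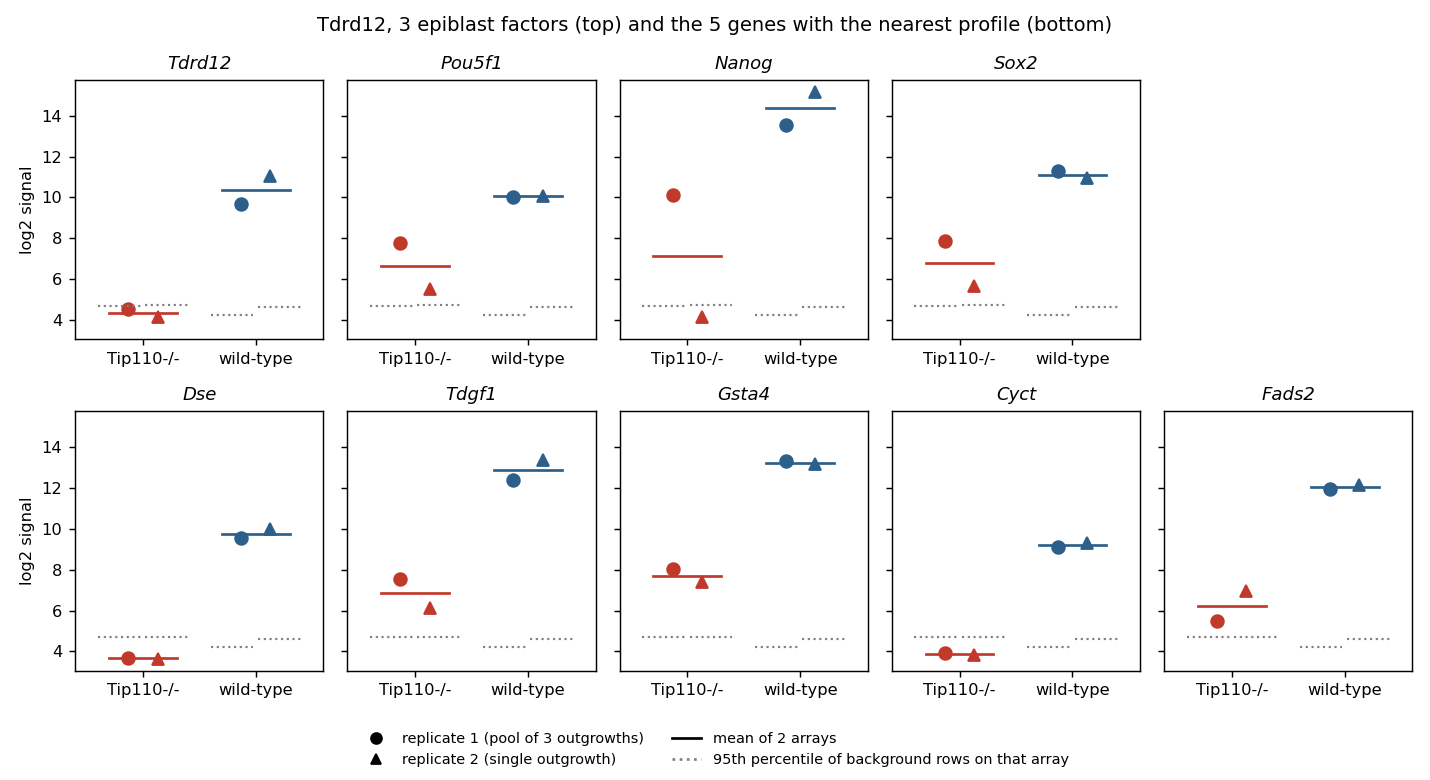
Log2 signal (y axis) of Tdrd12, Pou5f1, Nanog and Sox2 in the top row and of the 5 genes with the nearest profile in the bottom row, by genotype (x axis), with symbols as in the plot of the 10 genes by array. In all 9 genes both Tip110-/- arrays lie below both wild-type arrays, and Tdrd12, Dse and Cyct lie below the background percentile on both Tip110-/- arrays.

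The protein-coding genes on either side of Tdrd12 in the RefSeq order of GRCm38.p6 were also read. Nudt19, a coenzyme A hydrolase next on 1 side, had 6.51 and 6.59 in Tip110-/- and 7.63 and 6.96 in wild-type, lower in both Tip110-/- arrays by a mean of -0.75. Cep89, a centrosomal protein gene beyond the neighbour on the other side, had 4.86 and 4.92 in Tip110-/- and 4.69 and 4.80 in wild-type, just above background. The cystine transporter gene Slc7a9, which is that neighbour, and Rgs9bp, beyond Nudt19, were below the background percentile on all 4 arrays, where a loss could not be seen.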

How the data were processed

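Total RNA of 4 outgrowth samples, 2 Tip110-/- and 2 wild-type, was labelled with the Affymetrix WT Pico protocol, per the labels' protocols. The labels give 144 pg of RNA per array and the design text 100 pg. The deposited values are log2 signals, a base inferred from their range. Affymetrix Expression Console and Transcriptome Analysis Console are named in the submitters' processing notes; which normalization and genome build were used is not given in the sources used here. Scanner files were not used here.

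Rows with exactly 1 distinct gene symbol in the platform annotation were kept, 30604 of 65956 transcript rows, with symbols updated by Entrez ID, and the row with the highest mean per gene, giving 30142 genes. limma 3.58.1 in R 4.3.3 (lmFit, eBayes with trend, genotype only) was fitted to all genes, two-sided, with Benjamini-Hochberg adjustment and no filter on level; it was tested on simulated data. Joins used pandas 2.3.3, plots matplotlib 3.10.9. The members and gene lists were chosen with earlier results of these data known. Genes named were all members, Sart3, the epiblast factors Pou5f1, Nanog and Sox2, up to 4 with the smallest p per list, and the 5 nearest to Tdrd12. Named outside this rule, after their values were seen, were Tex19.1, Tex19.2, Stk31, Tdrd3, Tex15, Nlrp5, Figla, Oosp1 and the neighbours of Tdrd12. The same holds for Tfcp2l1, Klf2, Klf4, Zfp42, E2f6 and Ehmt2. Of the marker lists, 0 of 6 primitive endoderm and 0 of 6 fibroblast genes had an unadjusted p under 0.05 (0 adjusted, limma); only their counts are described. Promoters are from RefSeq. Alternatives were 3 normalizations, a filter at the median gene, other variance priors, a replicate block, other rows and each array left out. The number of arrays limits the precision.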

Additional observations from a re-analysis of the deposited data

How the results depend on the processing

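The Tdrd12 difference stayed between -6.72 and -5.34 under every alternative run, the ends being reached without wild-type replicate 1 and without wild-type replicate 2. It was -6.14 after quantile normalization, -6.19 with centred arrays and -5.97 after cyclic loess. The median difference of the 10 genes ran from -0.30 to 0.26, the low end coming from the members above the median gene only, and it was -0.05 with centred arrays. The count of members lower with no overlap was 1 with all arrays and 2 to 3 when 1 array was left out. There 1 array stood for a genotype, so that no overlap was easier to reach for any gene. Counted in either direction, 2 other piRNA pathway genes had an unadjusted p under 0.05. This count was 4 with arrays centred on their median or after cyclic loess. The differences of Piwil2, Tdrd1, Tdrd5 and Tdrd9 moved by more than their spread under the 3 normalizations, to 0.00 for Piwil2, Tdrd1 and Tdrd9 and 0.10 for Tdrd5 after quantile normalization. Those of Dazl, Ddx4 and Sart3 kept their sign under the 3 normalizations and with each array left out. The other alternatives returned the main difference of these genes and of Tdrd12 unchanged, so they add no support. With the replicate block the Tdrd12 difference of -6.03 and the median of 0.12 could not change, since each genotype held 1 array of each number. The count of other piRNA genes, in either direction, was then 3. Pools carry number 1 and single outgrowths number 2, and nothing in the labels ties equal numbers together. Same-numbered arrays did not deviate together over genes (r = -0.09, n = 30142 genes that are not independent replicates). Among all genes, the 2711 higher at an unadjusted p under 0.05 became 4660 without Tip110-/- replicate 2, 1232 without wild-type replicate 1, 1166 without wild-type replicate 2 and 1173 after cyclic loess, the last with 1540 lower; with all 72688 rows of the table tested there were 5310 higher and 1739 lower. By limma 0 genes passed the adjusted threshold under any alternative. Signal near background limits the differences of genes such as Piwil2, Tdrd1, Tdrd5, Tdrd9, Ddx4 and Gdf9. It also limits those of Tdrd12, Sart3, Gpat2, Zp3, Pcgf6, Fgf4, Esrrb, Dse and Cyct toward lower values.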

Other observations

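Subunits of PRC1.6 and enzymes of DNA and histone H3 methylation, which keep germline genes silent outside the germline, were read as a list of 21 genes, 20 of them measured. At an unadjusted p under 0.05 in limma 4 were lower in Tip110-/-, 0 higher and 16 did not pass, beside 3.67% and 8.99% of all genes, and 0 passed after adjustment (smallest limma adjusted p = 0.318). No overlap was found for 10 toward lower and 2 toward higher signal, beside 12.9% and 39.9% of all genes. Of the higher ones, Ehmt2 had 8.93 and 9.42 in Tip110-/- and 8.40 and 8.27 in wild-type. The other, E2f6, had 5.62 and 6.12 in Tip110-/- and 5.29 and 5.43 in wild-type. Pcgf6, the subunit that defines PRC1.6, had 4.55 and 4.23 in Tip110-/- and 5.51 and 5.87 in wild-type. Its Tip110-/- values were below background. The histone H3 methyltransferase Setdb1 had 5.76 and 6.57 in Tip110-/- and 7.36 and 7.99 in wild-type, the DNA methyltransferase Dnmt3b had 6.20 and 6.31 in Tip110-/- and 7.43 and 7.20 in wild-type, and the deacetylase Hdac2 had 9.12 and 8.32 in Tip110-/- and 10.03 and 10.40 in wild-type.

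Among 11 genes of primordial germ cells, the embryonic precursors of sperm and eggs, 3 were lower at an unadjusted p under 0.05, 1 higher and 7 did not pass, beside 3.67% lower and 8.99% higher among all genes, with 0 after adjustment (smallest limma adjusted p = 0.333). Dppa3, which protects maternal methylation in the zygote, had 4.75 and 3.68 in Tip110-/- and 5.59 and 5.86 in wild-type. Dppa5a had 17.06 and 15.35 in Tip110-/- and 18.61 and 18.70 in wild-type, and Ifitm3, a membrane protein first seen in germ cell precursors, had 6.44 and 4.82 in Tip110-/- and 7.89 and 8.38 in wild-type. Dppa3, Dppa5a and Ifitm3 are also expressed in the pluripotent epiblast and in embryonic stem cells. Nanos2, a translational repressor of male germ cells, had 4.09 and 4.01 in Tip110-/- and 3.61 and 3.70 in wild-type, all below background.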
